A study of Mus musculus with 48 samples.

Results

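The subject here is the nuclear genes of the mitochondrial respiratory chain in mouse cortex. They are the protein-coding genes whose symbols follow the names of complex I (Nduf), complex II (Sdh), complex III (Uqcr), complex IV (Cox) and ATP synthase, complex V (Atp5); the muscle form Cox6a2 and symbols marked as pseudogenes were left out, and no measured value entered the choice. The table of postnatal days P1, P7, P14 and P45 held 84 such genes among 54100 rows, namely 37 of complex I, 4 of complex II, 8 of complex III, 17 of complex IV and 18 of complex V. Of these, 80 passed a mean of at least 0.5 FPKM and were tested with 19733 genes in all; Cox7b2, Cox8b, Cox8c and a second Atp5o entry did not pass. The P21 table also held 84 members, of which 80 passed, among 16420 genes tested; its set includes Atp5md, which the age table lists as Usmg5 and so outside the name pattern, and lacks Atp5s. The table of the P1 CT and VPA samples held 34 members, of which 30 passed, among 11264 genes tested, with none of complex II; the other members are not analysed here for that pair of groups.

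RNA-seq was done on cortex. Samples with the genotype label mG-cKO were set against Ctrl at P1 and P45 (3 samples each) and at P7 and P14 (2 samples each; the third replicate of each group at P7 and P14 is not analysed here). At P21 there were 5 groups of 3 samples: mG-cKO given RTI, mG-cKD given RTI, untreated mG-cKO, untreated mG-cKD, and untreated Ctrl. At P1 there was a further pair of groups, VPA and CT, with 3 samples each, both labelled with the Ctrl genotype. What mG, RTI and VPA stand for is not given in the labels, nor is the altered gene, a driver or Cre line, or any pooling of animals. Nothing says that replicates came from separate animals, and the p-values here therefore reflect a spread that may be technical. The series title concerns retrovirus-derived RNA–DNA hybrids, complement C4b and microglial pruning in autism; which question the respiratory chain answers is not stated, and the comparisons below are those of genotype, age and treatment.

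The respiratory chain passes electrons from NADH, through complex I, and from succinate, through complex II, to ubiquinone, complex III, cytochrome c and complex IV, where oxygen is reduced; complexes I, III and IV pump protons and complex V uses the gradient to make ATP. Most subunits are encoded in the nucleus and imported, and a small core of complexes I, III, IV and V is encoded by mitochondrial DNA. Cortex leans on this pathway for the ATP that drives ion pumping, and its capacity is known to grow over the first postnatal weeks. Several complex IV subunits have alternative forms with their own tissue bias: Cox6b2 is known as the testis form of Cox6b1, Cox7a1 as a heart and muscle form, and Cox4i2 and Ndufa4l2 as forms raised in low oxygen. Ndufa4 is counted here with complex I by its name, although biochemistry now places it in complex IV.

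Many nuclear respiratory genes are known to start from CpG-rich promoters that bind NRF1 (motif GCGCA and GCGC with any base between them) and ETS factors such as GABP (motif CCGGAAG). The promoters of 4 members on which the results turn are shown. Cox6b2, whose mG-cKO and Ctrl libraries do not overlap at P1, P7, P14 or P21, and its ubiquitous partner Cox6b1 have each CG in capitals. Sdha, the flavoprotein subunit of complex II, has the NRF1 motif in capitals, and Uqcr11 the ETS motif. Uqcr11 had the smallest adjusted p of the members between P7 and P14 in the whole-read fit described below. It was not called in the fit on all libraries. Each window is the 250 bases before the RefSeq start on the minus strand of GRCm38.p6 (mm10), at chr7:4753095-4753344 for Cox6b2, chr7:30626115-30626364 for Cox6b1, chr13:74350241-74350490 for Sdha and chr10:80406822-80407071 for Uqcr11.
Cox6b2: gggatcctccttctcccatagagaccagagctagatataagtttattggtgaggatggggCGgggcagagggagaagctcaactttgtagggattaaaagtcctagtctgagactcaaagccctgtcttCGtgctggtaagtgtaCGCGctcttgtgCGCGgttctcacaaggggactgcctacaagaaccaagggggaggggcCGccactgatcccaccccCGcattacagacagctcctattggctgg
Cox6b1: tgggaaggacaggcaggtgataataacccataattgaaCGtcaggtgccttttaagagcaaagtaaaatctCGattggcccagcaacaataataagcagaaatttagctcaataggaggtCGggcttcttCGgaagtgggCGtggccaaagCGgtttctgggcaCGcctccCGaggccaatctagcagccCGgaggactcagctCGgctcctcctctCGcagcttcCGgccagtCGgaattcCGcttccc
Sdha: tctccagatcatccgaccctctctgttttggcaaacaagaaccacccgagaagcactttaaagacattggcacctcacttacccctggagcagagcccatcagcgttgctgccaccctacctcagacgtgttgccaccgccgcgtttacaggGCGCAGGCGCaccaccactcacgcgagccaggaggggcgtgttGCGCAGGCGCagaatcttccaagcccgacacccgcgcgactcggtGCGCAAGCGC
Uqcr11: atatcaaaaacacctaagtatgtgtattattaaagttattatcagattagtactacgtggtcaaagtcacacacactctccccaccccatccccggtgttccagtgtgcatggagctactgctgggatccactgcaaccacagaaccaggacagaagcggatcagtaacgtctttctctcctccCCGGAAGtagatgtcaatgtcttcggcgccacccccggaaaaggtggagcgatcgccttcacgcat

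The Cox6b2 window held 8 CG dinucleotides and the Cox6b1 window 14; the median was 14 over the 73 windows of the 68 members matched in RefSeq and 6 over all 32851 windows. The NRF1 motif, searched on both strands, stood 3 times in the Sdha window, and in 14 of the 73 member windows (19.2%) against 3.74% of all windows. The ETS motif stood once in the Uqcr11 window and in 12 member windows (16.4%), against 6.91% of all windows. The YY1 motif AAGATGGCG stood in 1 member window (1.37%, Atp5j), against 0.606% of all windows. These are matches of letters in fixed windows, and binding was not measured.

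Expression was deposited as FPKM, fragments scaled by gene length and by the library's mapped fragments. The 41 libraries used were of 2 kinds. In replicates 1 and 2 of the age table, CT replicates 1 to 3 and VPA replicates 1 and 2, 98.8% to 99.3% of low values were whole multiples of 1 read, which gave depths of 17.5 to 30.9 M reads in the age table and 13.5 to 19.5 M in the CT and VPA table; these are called whole-read libraries below. In replicate 3 at P1 and P45, all P21 libraries and VPA replicate 3, only 14.4% to 21.1% were, and the depth is unknown. The kind of library moved the members: at P1 in Ctrl, replicate 3 stood above the mean of replicates 1 and 2 by a median of 0.28 (log2, 80 members), with differences from −1.56 for Atp5k to 2.78 for Ndufb8. In the 23 members whose merged exons were at least 2 times as long as their longest transcript the median difference was 1.18, and in the 21 members where both lengths were nearly equal it was −0.11. P45 replicates 1 and 2 also stood apart, with 18351 to 21130 FPKM of the small nuclear RNA Rn7sk where all other libraries had at most 152 FPKM. At P21, replicate 3 of untreated mG-cKO, mG-cKD and Ctrl stood apart from the other 12 libraries, with 821, 875 and 1258 FPKM of Cox8a against 334 to 498 FPKM. All 10 cortical neuron markers were above 1 FPKM in every library of the age and P21 tables; the rows of those markers are not analysed here for CT and VPA. Choroid plexus markers were high in 5 libraries of these tables, with a summed level of 528 and 265 FPKM in replicates 2 and 3 of mG-cKO given RTI, 289 FPKM in replicate 3 of mG-cKD given RTI, and 249 and 248 FPKM in Ctrl replicate 2 at P7 and at P14, where no other library exceeded 79.9 FPKM.

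At P14 in Ctrl cortex the levels of the members ran over more than 2 orders of magnitude, in FPKM. Complex IV and V subunits led the order. Cox8a, a small structural subunit of complex IV, had 525 and 535 FPKM, and Cox6a1, the liver and brain form of subunit 6a, had 414 and 422 FPKM. The catalytic ATP synthase subunits followed, with 275 and 276 FPKM for Atp5a1 (alpha) and 241 and 247 FPKM for Atp5b (beta); Cox4i1, the regulatory subunit 4 of complex IV, had 210 and 216 FPKM. These 5 neighbours did not overlap in these P14 libraries, but the order was not the same in libraries of the other kind. Over all P21 libraries the mean was 447 FPKM for Atp5b, 419 FPKM for Cox4i1 and 265 FPKM for Atp5a1. Merged exons hold 4237 bases in Atp5b and 8086 in Ndufs1, against 1916 and 2661 in their longest transcripts. The part of length in the order was not tested. Among the core subunits of the other complexes, Uqcrfs1, the Rieske iron–sulfur protein of complex III, had 87.9 and 87.2 FPKM, Sdha 71.8 and 73.9 FPKM, Ndufv1, the NADH-binding subunit of complex I, 44.0 and 44.8 FPKM, and Ndufs1, an iron–sulfur subunit of complex I, 14.9 and 15.4 FPKM. The alternative forms closed the order of the members tested: Ndufa4l2 had 2.63 and 2.07 FPKM, Cox6b2 1.65 and 1.43 FPKM, Cox4i2 1.28 and 0.943 FPKM and Cox7a1 1.08 and 1.09 FPKM, and the libraries of Cox6b2 and Ndufa4l2 do not overlap while those of Cox4i2 and Cox7a1 do. At P21 in Ctrl the same 4 forms stayed between 0.731 and 3.17 FPKM, and Cox8c was listed at 0 in every library of the age table.

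**Figure D1:**
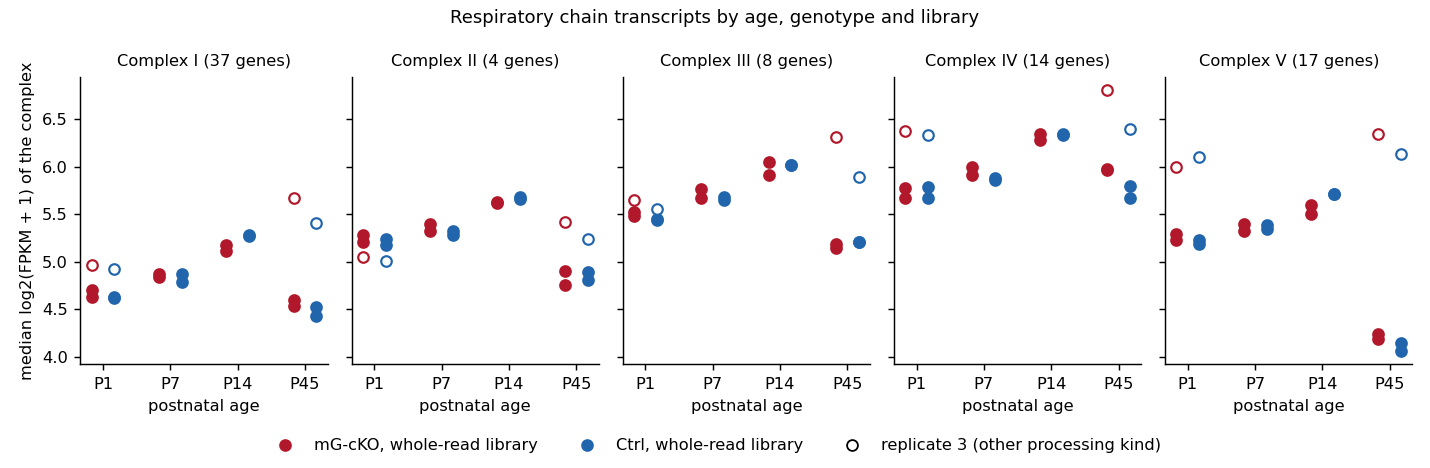
Median level of the tested members of each complex in every library (y axis, log2(FPKM + 1)) by age and genotype, mG-cKO to the left of Ctrl at each age, with filled symbols for whole-read libraries and open ones for replicate 3. In whole-read libraries all complexes stand higher at P14 than at P1, and at P1 and P45 the other libraries stand apart from them.

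The respiratory chain rose with age in Ctrl cortex between P1 and P14. Between whole-read libraries of one age and the next, 57 of 80 members (71.2%) rose at both steps with no overlap, P1 below P7 below P14, against 3016 of 19733 genes tested (15.3%). In mG-cKO 52 of 80 members (65%) did so, against 15.3% of all genes. The summed FPKM of the members in whole-read Ctrl libraries was 3369 and 3292 at P1, 3978 and 4045 at P7, and 5470 and 5485 at P14.

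For P7 against P1 in Ctrl, the fit on whole-read libraries called 38 members higher (47.5%; 16.8% of all genes tested were called higher) and 1 lower, Ndufc2 (limma, adjusted p under 0.05, adjusted over all genes). By complex, 5 of 8 members of complex III were higher, beside 13 of 37 in complex I, 2 of 4 in complex II, 8 of 14 in complex IV and 10 of 17 in complex V. Uqcrq, a small subunit of complex III near its ubiquinone site, had 43.6 and 44.5 FPKM at P7, against 28.2 and 25.5 FPKM at P1, a log2 difference of 0.70 ± 0.05 (SE; adjusted p = 3.49e-06). Uqcr10, another small subunit of complex III, had 89.8 and 95.3 FPKM at P7 against 64.2, 59.0 and 56.3 FPKM at P1, higher in every P7 library than in any P1 library of either kind. Ndufs8, an iron–sulfur subunit of complex I, had 39.4 and 38.8 FPKM at P7 against 26.3, 24.8 and 24.6 FPKM at P1 (0.59 ± 0.07, adjusted p = 4.82e-05, whole-read libraries). Atp5d, the delta subunit of the ATP synthase rotor, had 78.4 and 78.0 FPKM at P7 against 57.8 and 54.0 FPKM in the whole-read P1 libraries (0.48 ± 0.04), but 85.6 FPKM in P1 replicate 3, so that the groups overlap once that library is included. Sdhd, a membrane anchor of complex II, rose by 0.34 ± 0.05 and Cox8a by 0.63 ± 0.06. The core subunits Sdha and Sdhb of complex II were not called, with 44.2 and 42.5 FPKM of Sdha at P7 against 39.9 and 41.3 FPKM at P1. Markers of other cells moved at this step too: in the same fit 8 of 8 astrocyte markers (median 1.12), 7 of 8 microglia markers (median 0.55) and all 5 erythroid markers tested (median 1.08) rose, 4 of 10 oligodendrocyte markers rose and 1 fell, and 4 of 10 neuron markers rose and 5 fell. Their part in the rise of the members was not tested.

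The fit on all libraries, in which P1 replicate 3 enters, called only Uqcr10 among the members (0.62 ± 0.12, adjusted p = 0.00799; 6.24% of all genes called in either direction), with 7 members higher at an unadjusted p under 0.05; without either P7 library it called 0. Scaling libraries to a common median moved the median of all genes from −0.07 to 0.09 and that of the members from 0.09 to 0.25, so the members stood above the median gene by about the same margin in both.

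For P14 against P7 in Ctrl, where all 4 libraries are whole-read, the same fit called 61 members higher (76.2%; 20.7% of all genes tested) and 1 lower. By complex, 29 of 37 members of complex I, 2 of 4 of complex II, all 8 of complex III, 9 of 14 of complex IV and 13 of 17 of complex V rose, and the 1 lower was in complex V. The median difference of the 80 members was 0.36, against −0.01 over all genes tested. Uqcr11, a small subunit of complex III, had 127 and 131 FPKM at P14 against 60.8 and 61.6 FPKM at P7 (1.06 ± 0.04, adjusted p = 1.68e-08). Cox8a reached 525 and 535 FPKM at P14 against 266 and 286 FPKM at P7 (0.94 ± 0.06). Sdha had 71.8 and 73.9 FPKM at P14 against 44.2 and 42.5 FPKM at P7 (0.74 ± 0.04). The other core subunits moved less: Cox4i1 rose by 0.56 ± 0.04, Ndufs1 by 0.52 ± 0.07, Atp5a1 by 0.36 ± 0.04, Uqcrfs1 by 0.35 ± 0.04 and Atp5b by 0.31 ± 0.04. In complex I, Ndufb8, a membrane-arm subunit, had 19.4 and 20.5 FPKM at P14 against 11.7 and 11.6 FPKM at P7 (0.73 ± 0.05), Ndufa3 rose by 0.61 ± 0.05 and Ndufb9 by 0.72 ± 0.06.

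With the spread estimated over all 20 libraries of the age table, 4 members passed at this step (Cox7b 0.57 ± 0.13, adjusted p = 0.0137; Ndufc1 0.59 ± 0.15; Sdha 0.74 ± 0.19; Uqcr10 0.52 ± 0.14; 8.57% of all genes called), and 0 passed when any 1 of the 4 libraries was left out. Cox7b, a small subunit of complex IV, had 76.2 and 80.3 FPKM at P14 against 52.8 and 51.8 FPKM at P7. The differences equal those of the whole-read fit for this step, and only the errors differ.

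Genes around the chain moved at the same step. Of 18 TCA cycle genes, 14 rose and 1 fell (P14 against P7, whole-read fit); Dlat, of pyruvate dehydrogenase, had 26.7 and 26.1 FPKM at P14 against 16.5 and 14.7 FPKM at P7 (0.73 ± 0.11 over all libraries, adjusted p = 4.48e-04). Of 20 rows of glycolytic genes, 14 rose and 2 fell, of 49 assembly factors tested 17 rose and 4 fell, and of 13 mitochondrially encoded subunits 3 rose. Of 14 biogenesis regulators tested, 5 rose and 4 fell, with a median of −0.03: Esrrg, a nuclear receptor of mitochondrial gene programmes, had 4.23 and 4.30 FPKM at P14 against 2.79 and 2.63 FPKM at P7 (0.51 ± 0.14, adjusted p = 0.0436, all libraries). Gabpa, the DNA-binding subunit of GABP, was lower at P7 than at P1, with 5.18 and 5.57 FPKM against 8.47, 8.09 and 7.85 FPKM (−0.52 ± 0.08, adjusted p = 0.00209, all libraries). The makeup of the tissue moved too: all 10 oligodendrocyte markers (median 3.48), 7 of 8 microglia markers (median 1.01) and 6 of 8 astrocyte markers (median 0.54) rose at this step in the whole-read fit, and 4 of 10 neuron markers rose and 4 fell. In bulk tissue fewer cells of a type and less RNA per cell cannot be told apart, and the part of cell makeup in the rise of the members was not tested.

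At P45 against P1 in Ctrl the direction depended on the kind of library. The whole-read libraries of these ages also differed in makeup. Rn7sk had 20521 and 21130 FPKM at P45, against 2.54 and 1.14 FPKM at P1. At P45 19088 and 19137 genes reached 1 FPKM, against 14435 and 14501 at P1. Age and such library differences therefore cannot be told apart in whole-read libraries. In whole-read libraries 9 members were higher and 53 lower (62 called, 77.5%; 77.7% of all genes were called in either direction), with a median of −0.37, while in replicate 3, the single library of the other kind at each age, 65 of 80 were higher, with a median of 0.28 and no test. Both kinds gave 16 members higher and 15 lower; the other 49 were higher in replicate 3 only. In the fit on all libraries 4 members rose and 3 fell (36.6% of all genes called). With libraries scaled to a common median 2 rose and 4 fell, and with the replicate number as a block 6 rose and 5 fell. For the scaled and block fits the share of all genes called is not given here. Counts without 1 library were 3 for each of replicates 1 and 2 at either age and 15 without P45 Ctrl replicate 3. In the fit on all libraries 9 of 10 oligodendrocyte markers (median 4.25), 7 of 8 microglia markers (median 1.40) and 5 of 8 astrocyte markers (median 1.68) rose between these ages, 4 of 8 vascular markers fell and 1 rose, and 3 of 10 neuron markers rose and 4 fell. Their part in the members' differences was not tested.

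Sdha was among the members higher in both kinds, with 61.1, 59.0 and 82.9 FPKM at P45 against 39.9, 41.3 and 38.7 FPKM at P1 (0.73 ± 0.16, adjusted p = 0.00207, all libraries). Cox8a had 306, 304 and 605 FPKM at P45 against 180, 178 and 246 FPKM at P1 (0.94 ± 0.32, adjusted p = 0.0352), and neither gene overlapped between ages. Atp5s, a factor tied to the coupling of ATP synthase, had 5.89, 6.60 and 7.78 FPKM at P45 against 4.12, 3.43 and 4.46 FPKM at P1 (0.63 ± 0.13, adjusted p = 0.00170). Cox7a1 had 2.86, 3.21 and 1.16 FPKM at P45 against 0.697, 1.11 and 0.858 FPKM at P1 (0.80 ± 0.25, adjusted p = 0.0207), and replicate 3 showed the smallest gap between the ages.

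Of the members that fell, Atp5mpl, a small membrane subunit of ATP synthase, had 25.4, 23.6 and 31.1 FPKM at P45 against 37.5, 43.8 and 40.6 FPKM at P1 (−0.59 ± 0.18, adjusted p = 0.0172), lower in every library. Cox7a2l, a relative of subunit 7a that joins complexes III and IV into supercomplexes, had 58.2, 55.3 and 52.8 FPKM at P45 against 83.2, 82.2 and 61.3 FPKM at P1 (−0.43 ± 0.16, adjusted p = 0.0468). Atp5k, the e subunit of ATP synthase, had 7.18 and 5.86 FPKM in whole-read P45 libraries against 30.7 and 34.5 FPKM at P1, but 11.4 FPKM at P45 against 10.4 FPKM at P1 in replicate 3, where the direction turned. Ppargc1b, a coactivator of mitochondrial biogenesis, was higher at P45, with 8.58, 9.70 and 4.94 FPKM against 0.830, 1.05 and 1.16 FPKM at P1 (2.08 ± 0.23, adjusted p = 6.93e-06).

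**Figure D2:**
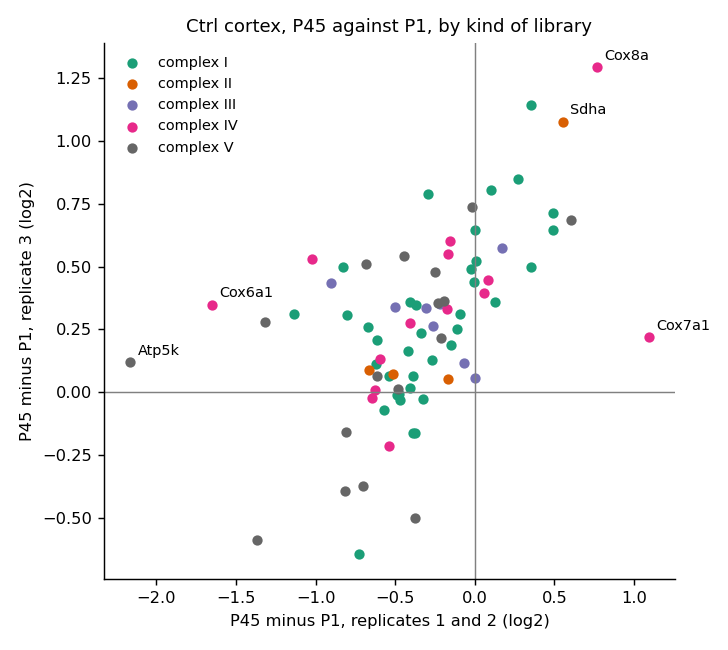
Log2 difference of each member for P45 against P1 in Ctrl in the whole-read libraries (x axis) and in the replicate 3 pair (y axis), coloured by complex. Most points lie left of 0 on the x axis and above 0 on the y axis: 49 of 80 members were higher in the replicate 3 pair only.

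Between genotypes, the members hardly moved at P1 and P7. At P1, 62 of 80 members were higher in mG-cKO, with a median of 0.04 (0 over all genes), 0 were called (limma; 0.142% of all genes called) and 1, Cox6b2, had an unadjusted p under 0.05. At P7, 53 of 80 were higher with a median of 0.03, 0 were called (0.162% of all genes), and Cox6b2 was again the 1 member under an unadjusted 0.05; the whole-read fit called it (1 member; 2.04% of all genes). Atp5a1 shows the scale of the spread: it had 183, 194 and 173 FPKM in mG-cKO at P1, against 174, 178 and 163 FPKM in Ctrl, and 217 and 211 FPKM in mG-cKO at P7, against 221 and 210 FPKM in Ctrl. In a simulated test of the P1 comparison 46% of genes changed by a log2 of 1 were recovered.

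At P14 the members leaned lower in mG-cKO: 65 of 80 were lower, with a median of −0.08, against −0.01 over all genes tested. The fit on all libraries called 0 (0.345% of all genes) and had 1 member, Cox6b2, under an unadjusted 0.05. The whole-read fit, which leaves out only P1 and P45 replicate 3 and so changes the estimate of spread, called 4 lower and 1 higher (5.91% of all genes, 6.25% of members). Uqcrfs1 had 75.2 and 76.1 FPKM in mG-cKO, against 87.9 and 87.2 FPKM in Ctrl (−0.21 ± 0.04, adjusted p = 0.00957). Sdha had 63.8 and 62.6 FPKM in mG-cKO, against 71.8 and 73.9 FPKM in Ctrl (−0.20 ± 0.04, adjusted p = 0.00979). Cox6b1 had 169 and 168 FPKM in mG-cKO, against 194 and 192 FPKM in Ctrl (−0.19 ± 0.04, adjusted p = 0.0154), and Ndufb8 had 17.0 and 17.5 FPKM, against 19.4 and 20.5 FPKM (−0.20 ± 0.05, adjusted p = 0.0451). In each of these 4 genes, 1 each from complexes I to IV, the groups did not overlap. They are named because they were called, so the lack of overlap follows from that choice and adds no evidence. Among the other core subunits Cox4i1 had 200 and 202 FPKM in mG-cKO, against 210 and 216 FPKM in Ctrl, and Atp5b 232 and 217 FPKM, against 241 and 247 FPKM; neither was called.

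Markers of other cells moved with genotype at P14. In the whole-read fit all 10 oligodendrocyte markers were lower in mG-cKO, with a summed level of 210 to 236 FPKM, against 744 to 838 FPKM in Ctrl and no marker at 0, and 5 of 10 neuron markers were lower, with summed levels of 522 and 524 FPKM, against 602 and 607 FPKM. Of the lists around the chain, 2 of 18 TCA cycle genes, 4 of 20 glycolytic rows and 2 of 49 assembly factors were lower in mG-cKO in that fit. The part of these in the members' lean was not tested. The difference of the genotype effects between P14 and P7 was itself lower by a median of 0.12 over the members, with 13 of 80 positive. The fit on all libraries called 0 members (limma, 0.0101% of all genes called) and had 0 members under an unadjusted 0.05. In the whole-read fit 13 members were lower at an unadjusted p under 0.05. The share of all genes under that threshold is not given here.

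**Figure D3:**
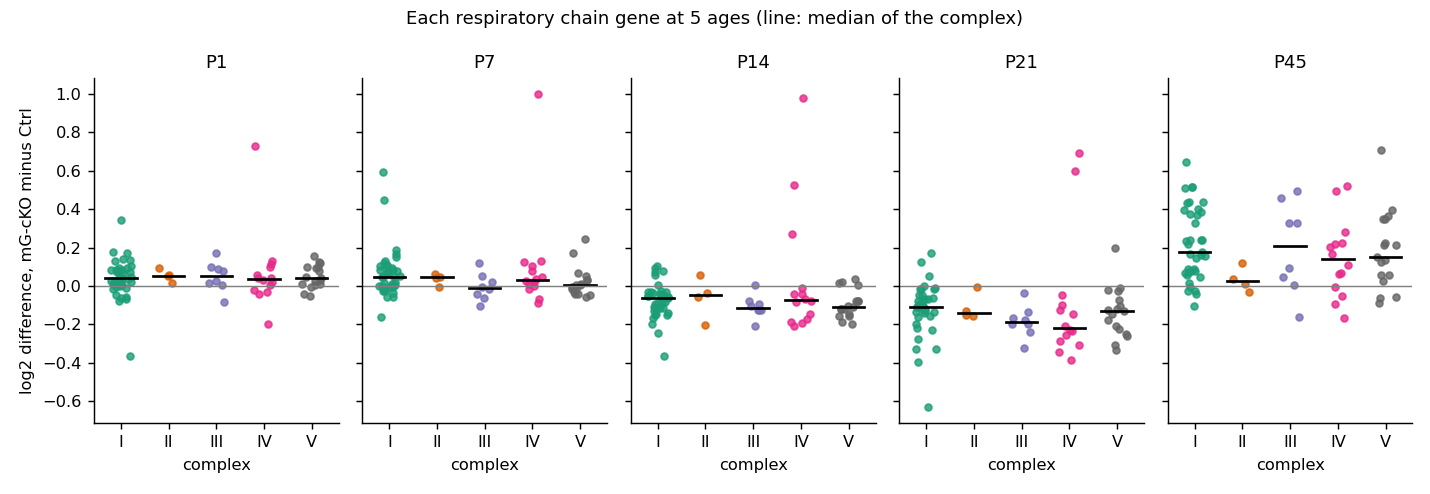
Log2 difference mG-cKO over Ctrl of each tested member at P1, P7, P14, P21 and P45 (y axis), by complex; each point is 1 gene and the line is the median of the complex. Most points lie below 0 at P14 and P21 and above 0 at P45, and the highest point at P1, P7, P14 and P21 is Cox6b2.

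At P45 the lean was the other way. With the fit on all libraries 66 of 80 members were higher in mG-cKO, with a median of 0.16 (0.01 over all genes), 0 were called (1.16% of all genes), and 3 were higher at an unadjusted p under 0.05. Same-numbered mG-cKO and Ctrl libraries deviated together at P45, where replicate 3 is of the other kind in both groups. That check cannot tell pairs from the kind of library, and the replicate 1 libraries did not match each other best. With the replicate number as a block 29 members rose and 1 fell (30 called, 37.5%, against 13.9% of all genes). Those that rose were 14 of 37 members of complex I, 4 of 8 of complex III, 4 of 14 of complex IV, 7 of 17 of complex V and none of complex II. The whole-read libraries alone gave 16 higher and 2 lower (18 called, 22.5%; 11.9% of all genes), and in the replicate 3 pair 73 of 80 were higher, with a median of 0.31 and no test. Both kinds of library gave 53 members higher and 5 lower.

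Ndufa5, an accessory subunit of complex I, had 23.3, 20.8 and 45.7 FPKM in mG-cKO at P45, against 15.8, 13.9 and 24.8 FPKM in Ctrl (0.64 ± 0.07 with the block, adjusted p = 3.72e-04; adjusted p = 0.921 without it). Ndufs6, a zinc-binding accessory subunit of complex I, had 21.1, 20.9 and 41.1 FPKM in mG-cKO, against 15.8, 15.3 and 29.2 FPKM in Ctrl (0.44 ± 0.05 with the block). Within each pair of libraries both genes were higher in mG-cKO, and across pairs the groups overlap because replicate 3 of Ctrl stands above the whole-read mG-cKO libraries. Ndufa3 rose by 0.40 ± 0.05 with the block. Uqcr10 did not overlap between the groups: it had 81.0, 74.3 and 96.4 FPKM in mG-cKO, against 62.0, 61.0 and 58.6 FPKM in Ctrl (0.46 ± 0.08 with the block, adjusted p = 0.00465; adjusted p = 0.0789 without it).

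In complex IV, Cox7c, a small subunit, had 71.3, 74.5 and 161 FPKM in mG-cKO, against 55.8, 51.7 and 98.9 FPKM in Ctrl (0.52 ± 0.07 with the block), and Cox7a2l had 68.5, 66.2 and 67.9 FPKM, against 58.2, 55.3 and 52.8 FPKM (0.28 ± 0.05 with the block), with no overlap. In complex V, Atp5k had 11.2, 8.16 and 26.0 FPKM in mG-cKO, against 7.18, 5.86 and 11.4 FPKM in Ctrl (0.71 ± 0.12 with the block). The core subunits were mixed. Sdhb, Cox4i1 and Atp5c1 were higher in mG-cKO by 0.07, 0.02 and 0.12 (log2) in whole-read libraries and by 0.21, 0.16 and 0.17 in replicate 3. Ndufv1, Sdha, Uqcrfs1, Cox5a and Atp5b were lower in whole-read libraries and higher in replicate 3. Ndufs1 and Uqcrc1 were lower in both. Uqcrc1, a core protein of complex III, had 31.9, 31.0 and 119 FPKM in mG-cKO, against 35.9, 36.4 and 128 FPKM in Ctrl, the 1 member that fell (−0.16 ± 0.04 with the block, adjusted p = 0.0383). Sdha had 59.2, 58.1 and 89.3 FPKM in mG-cKO, against 61.1, 59.0 and 82.9 FPKM in Ctrl, and Atp5b 131, 128 and 410 FPKM, against 146, 139 and 408 FPKM; neither was called. Cox8a was 1 of the 2 lower members in the whole-read fit, with 272 and 249 FPKM in mG-cKO, against 306 and 304 FPKM in Ctrl (−0.23 ± 0.06, adjusted p = 0.0381).

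Transcript length moved with the P45 difference. The members are short, with a median longest transcript of 861 bases against 3151 for all coding genes. In the 36 members under 800 bases the median difference was 0.23 and 32 were higher, in the 24 of 800 to 1500 bases it was 0.19, and in the 20 of 1500 bases or more it was 0.04 with 13 higher (Spearman's rho across the 80 genes −0.44, as a description). Over all coding genes tested, the median was 0.17 in the 430 under 800 bases, 0.07 in the 1508 of 800 to 1500 bases and 0.01 in the 11883 longer ones. The part of length in the members' difference was not tested further. Leaving out 1 library of the other kind moved the median of the members to −0.19 (without mG-cKO replicate 3) or to 0.45 (without Ctrl replicate 3), since the groups then hold unequal kinds.

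**Figure D4:**
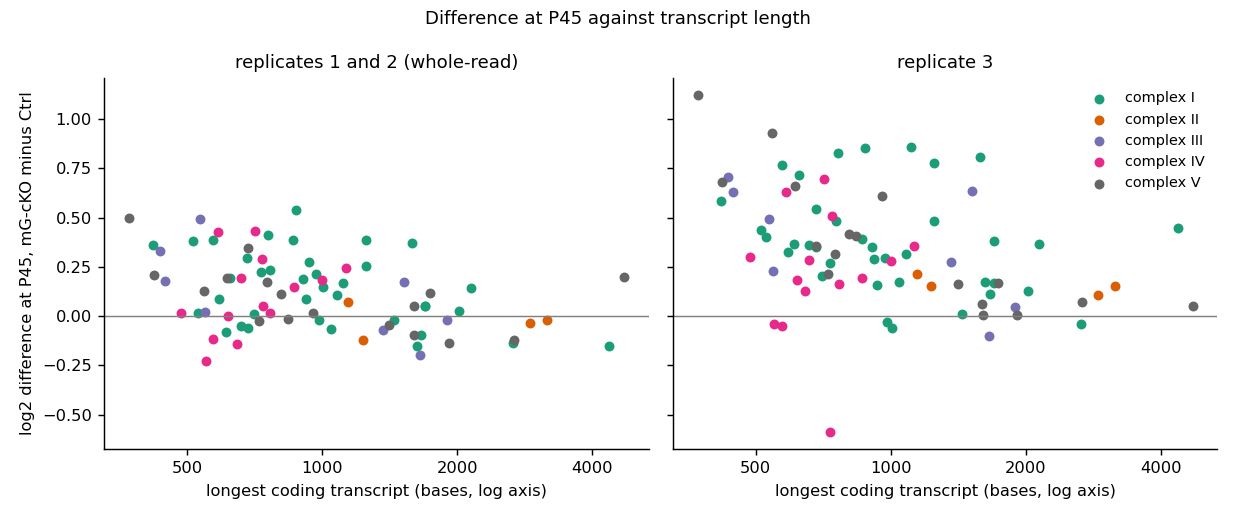
Log2 difference mG-cKO minus Ctrl at P45 of each member (y axis) against the length of its longest coding transcript in bases (x axis, log scale), for replicates 1 and 2 on the left and replicate 3 on the right, coloured by complex. In replicates 1 and 2, 29 of the 36 members under 800 bases lie above 0 (median 0.18) and 9 of the 20 of 1500 bases or more do (median −0.02).

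The genes around the chain at P45 gave a mixed picture. The assembly factor Uqcc2, needed for complex III, had 55.1, 54.1 and 57.7 FPKM in mG-cKO, against 30.7, 31.5 and 29.9 FPKM in Ctrl, with no overlap (0.84 ± 0.10, adjusted p = 2.05e-04, all libraries); it was the 1 called of 49 assembly factors, and 5 were called with the block. All 13 mitochondrially encoded subunits were lower in mG-cKO (median −0.35), 0 called with the fit on all libraries and 4 with the block; mt-Co1, the catalytic subunit of complex IV, had 3784, 3799 and 7665 FPKM in mG-cKO, against 5046, 4452 and 9825 FPKM in Ctrl (−0.33 ± 0.04 with the block, adjusted p = 0.00107). Oligodendrocyte markers were again lower, 9 of 10 called (median −2.17), with summed levels of 136, 155 and 473 FPKM in mG-cKO, against 811, 604 and 2050 FPKM in Ctrl, none at 0. Of 10 neuron markers, 0 were called over all libraries and 4 were lower in the whole-read fit. Their part in the members' differences was not tested.

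The difference of the genotype effects between P45 and P1 had a median of 0.09 over the members (0.01 over all genes) and 0 calls with the fit on all libraries (0.36% of all genes; Uqcr10 was the 1 member under an unadjusted 0.05). With the block 9 members were called higher (11.2%; 5.26% of all genes): Ndufa5, Ndufs6, Cox7c, Ndufa1, Uqcr10, Ndufa3, Ndufa2, Ndufa8 and Atp5k. The whole-read libraries gave 4 higher and 3 lower, and the share of all genes called in that fit is not given here. In it 45 of 80 members were positive (median 0.04), and 6966 of 13821 coding genes were (median 0.002).

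Cox6b2 was the member with the smallest p between mG-cKO and Ctrl at P1, P7, P14 and P21 in the fits on all libraries. In the whole-read fit at P14 Uqcrfs1 and Sdha had smaller ones. Cox6b2 was singled out for its small p, so lack of overlap between its mG-cKO and Ctrl libraries follows from that choice and adds no evidence. The gene lies at chr7:4751792-4753094 on the minus strand of mm10, and 0% of its 50-base words occur in another gene's transcripts. At P1 it had 2.52, 2.65 and 4.52 FPKM in mG-cKO, against 1.22, 1.46 and 1.85 FPKM in Ctrl, with no overlap. The log2 difference was 0.73 ± 0.32 with an unadjusted p of 0.0402 and an adjusted p of 1. At P7 it had 3.85 and 4.46 FPKM in mG-cKO, against 1.74 and 1.42 FPKM in Ctrl, again with no overlap (0.999 ± 0.18 in the whole-read fit, adjusted p = 0.0185). At P14 it had 4.18 and 3.83 FPKM in mG-cKO, against 1.65 and 1.43 FPKM in Ctrl (0.98 ± 0.18, adjusted p = 0.0105, whole-read fit; adjusted p = 1 with the spread over all libraries). At P45 it had 0.715, 1.41 and 3.43 FPKM in mG-cKO, against 0.819, 0.258 and 1.86 FPKM in Ctrl, and the groups overlapped (0.49 ± 0.32, adjusted p = 1). Its ubiquitous partner Cox6b1 stood at 124 to 170 FPKM at P1 and at 151 to 168 FPKM at P7 over both genotypes.

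At P21 Cox6b2 had 5.52, 5.07 and 4.69 FPKM in mG-cKO given RTI, 3.802, 4.76 and 3.97 FPKM in untreated mG-cKO, 1.66, 3.39 and 3.02 FPKM in mG-cKD given RTI, 2.17, 2.76 and 1.07 FPKM in untreated mG-cKD, and 2.11, 2.46 and 2.05 FPKM in Ctrl. Every mG-cKO library, with or without RTI, stood above every mG-cKD and Ctrl library. For untreated mG-cKO against Ctrl the difference was 0.69 ± 0.21 (adjusted p = 0.153), and against mG-cKD 0.83 ± 0.21 (adjusted p = 0.0864; adjusted p = 0.0497 without mG-cKD replicate 2). For mG-cKO given RTI against Ctrl it was 0.93 ± 0.21 and was called (adjusted p = 0.0346), but it was not when any 1 library was left out (adjusted p of 0.0571 to 0.131) or when the 3 libraries that stand apart were (adjusted p = 0.0745). RTI itself moved Cox6b2 by 0.24 ± 0.21 in mG-cKO and by 0.31 ± 0.21 in mG-cKD, neither called.

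Spermatogenic markers were also higher in mG-cKO, but not only where Cox6b2 was. Of 8, those high in mG-cKO were led by Tcfl5 and Prm1; at P14 Tcfl5 had 13.0 and 13.9 FPKM in mG-cKO, against at most 1.06 FPKM in Ctrl, and Prm1, a protamine, 9.44 and 8.71 FPKM, against 0.589 and 0.396 FPKM. Tnp1 and Ldhc were listed at 0 in all 4 libraries and Prm2 at 0 in both mG-cKO libraries. At P21, 4 of the 5 that could be tested were called higher in mG-cKO against Ctrl. Their part in the Cox6b2 difference was not tested.

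**Figure D5:**
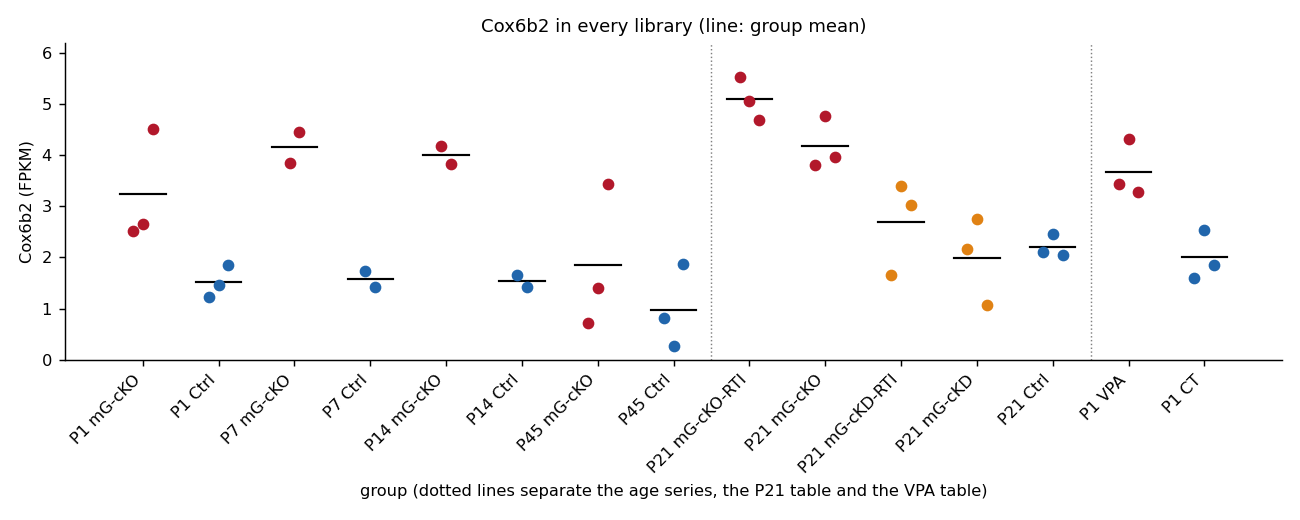
Cox6b2 level (y axis, FPKM) in every library by group, each point 1 library and the line the group mean, with mG-cKO left of Ctrl at each age and VPA left of CT. mG-cKO libraries stand above Ctrl at P1, P7, P14 and P21 and overlap with Ctrl at P45, and the 3 VPA libraries (3.27 to 4.32 FPKM) stand above the 3 CT libraries (1.60 to 2.54 FPKM).

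The other alternative forms gave no called difference between untreated mG-cKO and Ctrl in the fits on all libraries, and there Cox6b2 was not called either. Cox7a2l was among the members that rose with the block at P45. Cox7a1 had 2.30 and 1.73 FPKM in mG-cKO at P14, against 1.08 and 1.09 FPKM in Ctrl (0.53 ± 0.30, adjusted p = 1), and 2.08, 2.62 and 3.30 FPKM in untreated mG-cKO at P21, against 1.86, 0.731 and 1.79 FPKM in Ctrl (0.60 ± 0.31, adjusted p = 0.570); the libraries did not overlap at either age. Cox4i2 had 1.46 and 1.62 FPKM in mG-cKO at P14, against 1.28 and 0.943 FPKM in Ctrl, and Ndufa4l2 2.24 and 2.29 FPKM, against 2.63 and 2.07 FPKM. Of the genes for subunit c of the ATP synthase ring, Atp5g1 had 22.3 and 22.8 FPKM in mG-cKO at P14, against 25.7 and 26.0 FPKM in Ctrl, and Atp5g3 80.5 and 75.4 FPKM, against 88.6 and 85.4 FPKM; Atp5g1 shares 11.6% of its 50-base words with 366 other genes, so part of its reads may be counted elsewhere.

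At P21 the untreated genotypes were compared in pairs, RTI was compared with none within mG-cKO and within mG-cKD, both RTI effects were compared, and mG-cKO given RTI was set against Ctrl. In these comparisons no member other than Cox6b2 was called in the fit on all libraries. For untreated mG-cKO against Ctrl 74 of 80 members were lower, with a median of −0.13 (0.07 over all genes), and 0 were called (limma, 2.19% of all genes), with Cox6b2 the 1 member under an unadjusted 0.05. Without the 3 libraries that stand apart the median was −0.03 with 48 lower. For untreated mG-cKD against Ctrl the median was −0.07 with 74 lower, and 0.04 with 21 lower without those libraries. Of the members 0 were called (0% of all genes, and 0 members under an unadjusted 0.05). Here, with all libraries, the median was −0.08 in the 36 members under 800 bases and −0.09 in the 373 coding genes of that length, of which 92 were higher. In those of 1500 bases or more it was −0.05 in the 20 members and 0.02 in the 11662 coding genes. The part of length in this lean was not tested. For mG-cKO against mG-cKD the median was −0.05 and 0 were called (1.53% of all genes; 1 member under an unadjusted 0.05). Sdha had 110, 107 and 79.6 FPKM in untreated mG-cKO, 109, 114 and 79.3 FPKM in untreated mG-cKD and 113, 103 and 82.2 FPKM in Ctrl, where replicate 3 was the lowest of each group and the groups overlapped. Uqcr10 had 108, 122 and 116 FPKM in mG-cKO, 112, 123 and 127 FPKM in mG-cKD and 132, 93.5 and 176 FPKM in Ctrl.

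RTI against none gave a median of 0.16 with 63 of 80 members higher in mG-cKO (0.00609% of all genes called) and of 0.00 with 41 higher in mG-cKD (0% called), with 0 members called and 0 under an unadjusted 0.05 in either. By library, the median level of the members was 6.67, 6.27 and 6.17 (log2(FPKM + 1)) in replicates 1, 2 and 3 of mG-cKO given RTI. It was 6.24, 6.31 and 6.19 in untreated mG-cKO. Only replicate 1 given RTI thus stood above every untreated mG-cKO library. All 3 libraries that stand apart were untreated, and without them the medians were 0.11 and −0.07. The difference between the RTI effects of mG-cKO and mG-cKD had a median of 0.17 with 73 of 80 members positive, 0.17 again without those libraries, and 0 were called (0% of all genes; 0 members under an unadjusted 0.05). Ndufc2 had the smallest p of that difference (0.36 ± 0.23, adjusted p = 1). Markers of other cells moved with RTI, none of them called: in mG-cKO all 10 oligodendrocyte markers (median 0.50), all 5 erythroid markers tested (median 1.05) and all 4 choroid plexus markers tested (median 0.78) were higher with RTI. In mG-cKD 3 of 10 oligodendrocyte markers (median −0.13), all 5 erythroid markers (median 2.37) and all 4 choroid plexus markers (median 0.62) were. For the difference of the RTI effects 10 of 10 oligodendrocyte markers (median 0.62) and 0 of 5 erythroid markers (median −1.14) were positive. Their part in the members' shift was not tested. mG-cKO given RTI against Ctrl had a median of 0.05 over the members and 0.07 over all genes, and 1 member was called, Cox6b2 (2.3% of all genes). These comparisons share their untreated libraries. All 13 mitochondrially encoded subunits were lower in untreated mG-cKO than in Ctrl (median −0.33) with none called, and all 10 oligodendrocyte markers were called lower, with summed levels of 387, 313 and 488 FPKM in mG-cKO, against 3697, 2871 and 4414 FPKM in Ctrl, none at 0.

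At P1, VPA against CT moved none of the 30 members tested past the threshold (limma, 0% of all genes called); 2 were higher at an unadjusted p under 0.05. Atp5s had 3.95, 4.21 and 3.68 FPKM in VPA, against 2.32, 2.16 and 2.77 FPKM in CT (0.54 ± 0.16, adjusted p = 0.142). Cox6b2 had 3.43, 4.32 and 3.27 FPKM in VPA, against 1.60, 2.54 and 1.85 FPKM in CT (0.65 ± 0.19, adjusted p = 0.143). Neither gene overlapped between groups. Both are named for a small p, so the lack of overlap follows from that choice and adds no evidence. The median of the members was 0.29 with 20 of 30 higher (0.12 over all genes), but −0.08 with 10 higher without VPA replicate 3, which is of the other kind: Ndufb8 had 150 FPKM in VPA replicate 3 and 10.7 FPKM in each of replicates 1 and 2, against 13.3, 17.4 and 11.7 FPKM in CT. The spermatogenic markers Prm1 and Tcfl5 also stood apart in VPA replicates 1 and 2, with 9.07 and 6.65 FPKM of Prm1 against 0.380 to 0.647 FPKM in CT and 0 in VPA replicate 3. In that replicate Cox6b2 was above every CT library, but all CT libraries are whole-read. At P1 in Ctrl, Cox6b2 in replicate 3 of the other kind stood 0.29 (log2) above the mean of replicates 1 and 2. For VPA replicate 3, VPA and the kind of library therefore cannot be told apart. In a simulated test of this comparison 13% of genes changed by a log2 of 1 were recovered.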

How the data were processed

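RNA-seq of mouse cortex was deposited by the authors as FPKM per gene in separate tables for the ages, for P21 and for CT and VPA. Per the labels' protocols, RNA was taken with TRIzol and libraries were made with an NEB kit; the submitters' processing notes name STAR 2.5.3a, featureCounts 2.0.4, Trim Galore 0.6.5 and mm10. The labels list 48 samples and 41 columns were used. FPKM multiplied by merged exon length gave whole reads (within 0.05, up to 10 reads) in part of the libraries only, so depth is known for those alone.

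Each table was fitted by itself with limma 3.58.1 (R 4.3.3, moderated with trend and robust settings) on log2(FPKM + 1), with genes of a mean FPKM of at least 0.5, all groups of the table in one fit, and Benjamini-Hochberg adjustment over all genes tested (threshold 0.05); this scale understates the change of low genes. Log2 differences are given ± SE. The fit on whole-read libraries and the fit with the replicate number as a block were alternatives, as were a pseudocount of 0.1, no filter, scaling to a common median, only the groups compared and leaving out each library. Leaving out the 3 P21 libraries that stand apart was chosen after seeing the data. Same-numbered libraries deviated together (every correlation above 0.1) for mG-cKO against Ctrl at P1 (0.71 to 0.942), P21 (0.125 to 0.698) and P45 (0.871 to 0.969). They also did for mG-cKO against mG-cKD (0.332 to 0.693) and for P45 against P1 in Ctrl (0.556 to 0.665). Replicate 3 was of the other kind at P1 and P45 and stood apart at P21 in the untreated groups. The check therefore cannot tell pairs from such library differences. For mG-cKO against Ctrl, same-numbered libraries did not match best for replicate 2 at P1, replicates 1 and 2 at P21 and replicate 1 at P45. The pairing rests on the labels' replicate numbers. The fits were tested on simulated data.

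The members and lists were chosen with earlier results of these data known. Named members were the 3 with the smallest adjusted p per direction and complex among those called (the 5 smallest p where fewer than 5 were called), the core subunits and the alternative forms; lists contribute at most 3 called genes. Genes named otherwise (Tcfl5 and Prm1 as levels, Usmg5, Ndufb8 as a contrast of library kinds) were chosen after their values were seen. Python 3.11.15 and matplotlib 3.10.9 made the summaries and figures.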

Additional observations from a re-analysis of the deposited data

Results flagged for a closer look

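The effect of mG-cKO over Ctrl differed between P45 and P1 in 9 members by a direct test of that difference with the replicate number as a block (limma, adjusted over all genes), and in none in the fit on all libraries without the block. With the block these were 11.2% of members, against 5.26% of all genes. In that fit the median was 0.20 in the 36 members under 800 bases and 0.17 in the 430 coding genes of that length. In those of 1500 bases or more it was −0.03 in the 20 members and 0.01 in the 11883 coding genes. The part of length was not tested. In complex I the difference of the effects, P45 minus P1, was 0.62 ± 0.10 (SE) for Ndufa5 (adjusted p = 0.00828), 0.43 ± 0.07 for Ndufs6, 0.50 ± 0.09 for Ndufa1, 0.36 ± 0.07 for Ndufa3, 0.59 ± 0.14 for Ndufa2 and 0.31 ± 0.07 for Ndufa8. Outside complex I it was 0.54 ± 0.11 for Uqcr10 of complex III, 0.54 ± 0.10 for Cox7c of complex IV and 0.70 ± 0.17 for Atp5k of complex V. The levels at P45 show where it lies: Ndufa1, a small membrane-arm subunit, had 35.0, 34.4 and 25.2 FPKM in mG-cKO, against 29.4, 24.5 and 16.5 FPKM in Ctrl, and Ndufa2 had 49.3, 43.3 and 32.0 FPKM, against 35.7, 34.6 and 18.4 FPKM. Of these, Ndufa5, Ndufa3, Cox7c and Uqcr10 were also called in the whole-read libraries alone. Cox7c shares 27.9% of its 50-base words with 3 other genes, so part of its reads may be counted elsewhere.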

How the results depend on the processing

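For mG-cKO against Ctrl, where 0 members were called over all libraries, the whole-read libraries gave 1 at P7, 5 at P14 and 18 at P45; at P14 the fit on only the groups compared gave 1 and the replicate block, where the libraries share only a number, gave 2. The replicate block gave 30 at P45, and it gave 9 for the difference P45 minus P1, where the whole-read libraries gave 7. For P7 against P1 in Ctrl (1 called) scaling gave 2, only the groups compared 0, the block 0 and the whole-read libraries 39, and leaving out a library gave 0 to 1. For P14 against P7 (4 called) scaling gave 0, only the groups compared 60, the block 41, the whole-read libraries 62 and leaving out any library 0. For P45 against P1 (7 called) only the groups compared gave 0, the block 11, the whole-read libraries 62, and leaving out a library 3 to 15. For mG-cKO given RTI against Ctrl at P21 (1 called, Cox6b2) a pseudocount of 0.1, no filter, scaling, leaving out any library and leaving out the 3 that stand apart each gave 0; for mG-cKO against mG-cKD leaving out a library gave 0 to 1. Where a group is left with 1 library, that library is assumed to vary like the others. Directions turned for Cox6b2 in mG-cKD against Ctrl (−0.32 to 0.11 with a library left out); without the 3 that stand apart Cox6b2 gave 0.074. They also turned for Atp5k at P45 against P1 (0.12 in replicate 3) and for Ndufa3 in mG-cKO against Ctrl at P45 (−0.12 to 0.90 with a library left out). The cause was not tested. The block changed no other count by over 1.5 times. Of all alternatives run, 169 counts of called members stayed within 1.5 times and 41 did not. Counts in this section are of members alone and are not set beside shares of all genes. In simulations with a log2 change of 1 the fits recovered 46% of genes for P1, 78% for P21 and 13% for VPA against CT.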

Other observations

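Genes for subunits outside the name pattern also differed between genotypes. Cox6a2, the heart and muscle form of subunit 6a, which some cortical interneurons are also known to express, had 9.44 and 11.8 FPKM in mG-cKO at P7, against 2.83 and 3.54 FPKM in Ctrl, and 40.4 and 42.3 FPKM in mG-cKO at P14, against 9.54 and 9.93 FPKM in Ctrl. At P45 it had 36.6, 31.2 and 106 FPKM in mG-cKO, against 4.25, 2.02 and 8.30 FPKM in Ctrl (3.26 ± 0.44, limma, adjusted p = 9.58e-04). At P21 it had 21.4, 40.0 and 33.7 FPKM in mG-cKO given RTI, 46.2, 86.3 and 123 FPKM in untreated mG-cKO and 10.8, 8.14 and 24.4 FPKM in Ctrl (untreated mG-cKO against Ctrl 2.51 ± 0.44, adjusted p = 0.00469). The groups did not overlap at P7, P14 or P45 or between untreated mG-cKO and Ctrl at P21.

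Usmg5, a small subunit of ATP synthase, is listed under that name in the age table and as the member Atp5md in the P21 table. It had 260, 274 and 273 FPKM in mG-cKO at P45, against 177, 175 and 142 FPKM in Ctrl, with no overlap (0.71 ± 0.11 with the replicate number as a block, adjusted p = 0.00292). At P21, as Atp5md, it had 166, 186 and 277 FPKM in untreated mG-cKO, against 207, 125 and 339 FPKM in Ctrl, and the groups overlapped (−0.01 ± 0.33, adjusted p = 0.999).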
